A study of Mus musculus with 11 samples.

Results

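The genes described are Trp53, which encodes the transcription factor p53, and 9 genes named as direct p53 targets. They were chosen by symbol through the platform annotation of the array, and 9 of the 10 had a value among 19935 genes measured: Mdm2, Ccng1, Btg2, Plk2, Perp, Phlda3, Zmat3, Sesn2 and Trp53inp1. Each of the 9 was read by 1 transcript cluster, the group of probes that the array treats as a unit. Trp53 itself was not analysed here, so the values describe the targets and give no level of p53. Mouse embryonic stem cells (ESCs) were profiled on 11 one-colour Affymetrix arrays in 4 groups. Control cells were wild type cells of the E14 line, with 3 arrays in ESC medium and 3 arrays after 3 days in N2B27, a defined medium without serum that lets ESCs differentiate toward neural fates. Mutant cells, labelled Bmpr1a-/-, lack BMPR1A, a receptor for BMP signals, and gave 2 arrays in ESC medium (samples 2 and 3) and 3 arrays after 3 days in N2B27. The labels name 3 mutant lines without assigning an array to any of them. Nor do they state whether replicate arrays had cultures of their own, so the spread behind each p-value may be technical. The mutation and the difference between cell lines cannot be told apart in any genotype comparison below.

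p53 is activated by DNA damage and other stresses and binds DNA as a tetramer at paired copies of a short half-site. Its targets include Mdm2, whose protein marks p53 for degradation and so closes a negative feedback loop, and genes that slow the cell cycle, promote cell death or adjust metabolism. Mouse ESCs hold p53 protein at a high level for an undifferentiated cell, and p53 is known to repress Nanog and favour differentiation after damage.

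Values are log2 signals centred on a baseline of each gene, so they can be compared between arrays but not between genes. Differences are log2 differences of group means from one limma model over the 4 groups, each with its moderated standard error (SE). Calls required an adjusted p (Benjamini-Hochberg, over all genes) under 0.05, and "rose" and "fell" are used only of called genes. ESC marker genes were the check of the cell type: all 8 on a list headed by Pou5f1, Sox2 and Nanog fell in N2B27 in both genotypes, with a mean per array of 0.94 to 1.24 in the 5 ESC medium arrays and -1.28 to -0.32 in the 6 N2B27 arrays. The number of arrays limits the precision. In the deviation from group means over all genes, mutant sample 2 in N2B27 stood farthest out, with a root mean square of 0.185 against 0.0774 to 0.155 for the other arrays. The low end, 0.0774, is that of both mutant arrays in ESC medium. In a group of 2 the deviations are equal by construction, so that value is not like for like with groups of 3. The fit with array weights cited below gave mutant samples 1, 2 and 3 in N2B27 weights of 0.361, 0.235 and 2.93. It thus rests that group mostly on sample 3, and it called more genes than the main fit in every comparison.

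The fitted genotype differences of the 9 targets pointed down in ESC medium and up in N2B27. In N2B27, 5 of 9 were higher in mutant cells (Plk2, Mdm2, Phlda3, Perp and Ccng1), where 4.1% of all genes tested were called higher. In ESC medium 1 of 9, Perp, was lower in mutant cells, where 3.05% of all genes were called lower. From ESC medium to N2B27, 8 of 9 rose in mutant cells (all but Sesn2), against 14.9% of all genes that rose there and 10.3% that fell. In control cells 1 of 9 rose (Btg2) against 12.8% of all genes, and 3 of 9 fell (Plk2, Perp and Sesn2) against 13.3%. The comparisons share arrays, so these counts are not independent of each other: the mutant arrays in N2B27 enter both the genotype difference in N2B27 and the mutant response.

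**Figure D1:**
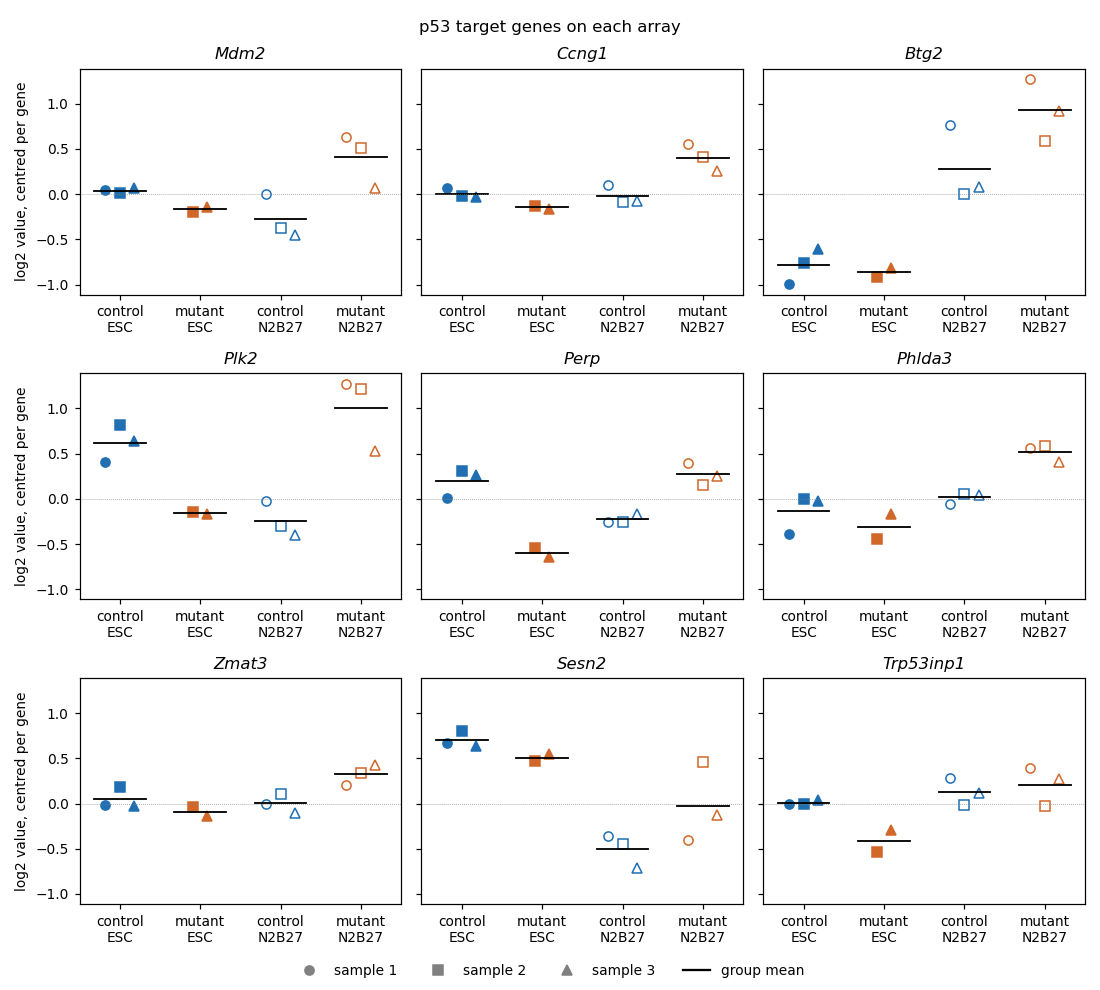
Log2 value of each of the 9 p53 target genes, centred per gene, on every array (vertical axis), by group (horizontal axis); symbols give the sample number and bars the group mean. In N2B27 the mutant arrays of Mdm2, Ccng1, Plk2, Perp, Phlda3 and Zmat3 all lie above the control arrays, while in ESC medium the mutant arrays of Plk2, Perp and Trp53inp1 lie well below.

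Sequences upstream of 3 targets are shown. Mdm2 and Ccng1 have an exact match to the p53 half-site close to their start. Plk2, the target with the largest genotype difference in N2B27, has none in the window searched. RefSeq promoter entries of build GRCm38.p6, each covering 250 bases before and 50 bases after a transcript start, matched 7 of the 10 genes by symbol. The p53 half-site, a palindromic motif of 10 bases, was searched as RRRCWWGYYY (R is A or G, W is A or T, Y is C or T). Only exact matches counted, so near matches are not marked. An exact match occurred in the windows of Trp53, Mdm2 and Ccng1 and not in those of Btg2, Plk2, Phlda3 and Sesn2. Among all 32851 promoter windows of the same length, 8.36% held one. The 4-base core CATG, one form of the half-site's centre, was in 2 of the 7 windows and in 61.1% of all windows. A match is a description of letters only, and the well-known p53 sites of Mdm2 lie in an intron, outside this window. The 250 bases before the start are given below 5′ to 3′, with the half-site in capitals.
Mdm2 (chr10:117710759-117711008, minus strand): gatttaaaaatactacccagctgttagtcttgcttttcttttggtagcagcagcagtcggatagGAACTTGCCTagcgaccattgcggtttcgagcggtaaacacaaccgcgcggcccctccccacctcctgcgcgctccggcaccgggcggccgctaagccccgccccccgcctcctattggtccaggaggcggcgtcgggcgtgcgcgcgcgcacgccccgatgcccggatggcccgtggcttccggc
Ccng1 (chr11:40755287-40755536, minus strand): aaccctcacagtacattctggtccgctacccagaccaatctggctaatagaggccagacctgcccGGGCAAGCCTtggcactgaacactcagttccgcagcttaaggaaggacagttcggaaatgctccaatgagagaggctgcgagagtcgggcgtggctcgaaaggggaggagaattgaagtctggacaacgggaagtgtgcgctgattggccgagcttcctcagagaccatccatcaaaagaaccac
Plk2 (chr13:110394794-110395043, plus strand): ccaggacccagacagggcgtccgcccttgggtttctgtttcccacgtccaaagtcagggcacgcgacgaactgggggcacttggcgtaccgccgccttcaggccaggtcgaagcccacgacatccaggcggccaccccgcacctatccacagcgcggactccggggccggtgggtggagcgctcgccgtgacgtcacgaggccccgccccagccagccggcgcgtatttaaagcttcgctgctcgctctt
The half-site starts 186 bases before the start in Mdm2 and 185 bases before it in Ccng1.

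Mdm2, the ubiquitin ligase of the feedback loop, read 0.04, 0.01 and 0.07 in control samples 1, 2 and 3 in ESC medium and -0.19 and -0.15 in mutant samples 2 and 3. In N2B27 it read 0.00, -0.38 and -0.45 in control cells, while mutant cells gave 0.64, 0.51 and 0.07. The groups did not overlap in any of the 4 pairwise comparisons, but mutant sample 3 in N2B27 lay only just above the highest control array in that medium. Between the media in control cells, sample 2 in ESC medium (0.01) likewise lay only just above sample 1 in N2B27 (0.00). The mutant level was higher than control in N2B27 by 0.68 (SE 0.15, adjusted p = 0.0266), a 1.60-fold difference. In ESC medium it differed by -0.21 (SE 0.16, adjusted p = 0.625). N2B27 raised Mdm2 in mutant cells by 0.57 (SE 0.16, adjusted p = 0.0272), while in control cells it differed by -0.32 (SE 0.15, adjusted p = 0.158), which passed without control sample 1 in N2B27 (0.048) and with array weights (0.0217). Both calls of Mdm2 depended on single arrays. The genotype call was lost without control sample 2 (0.0917) or 3 (0.106), mutant sample 1 (0.0675) or 2 (0.059), and with the compared groups alone (0.114). That of the mutant response was lost without mutant sample 2 (0.147) or 3 (0.106) in ESC medium, mutant sample 1 (0.0752) or 2 (0.0579) in N2B27, with the compared groups alone (0.0729) and with array weights (0.075).

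Ccng1 encodes cyclin G1, a target that works with the phosphatase PP2A on MDM2. It read 0.06, -0.02 and -0.04 on control arrays and -0.13 and -0.17 on mutant arrays, all in ESC medium. After N2B27 the values were 0.11, -0.08 and -0.07 in control cells, while mutant cells gave 0.55, 0.41 and 0.26. Control cells thus kept a narrow band in both media, and the 3 mutant arrays in N2B27 stood above the other 8 arrays. Ccng1 was higher in mutant cells in N2B27 by 0.42 (SE 0.08, adjusted p = 0.0184) and rose with N2B27 in mutant cells by 0.55 (SE 0.09, adjusted p = 0.0017). The genotype difference in ESC medium was -0.15 (adjusted p = 0.49) and the control response -0.02 (adjusted p = 0.924). Its genotype call in N2B27 was lost without control sample 2 (0.0699) or 3 (0.0778), and with the compared groups alone (0.0882).

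Plk2, a polo-like kinase gene induced by p53 and by growth signals, had the largest genotype difference of the 9 in N2B27. Its ESC medium values were 0.41, 0.82 and 0.64 in control and -0.14 and -0.17 in mutant. In N2B27 the order was turned, with -0.03, -0.29 and -0.41 in control cells, while mutant cells gave 1.27, 1.21 and 0.52. Mutant sample 3 was again the lowest of its group, yet it stood above every control array in that medium. The genotype difference was 1.25 (SE 0.19, adjusted p = 0.00566) in N2B27, a 2.37-fold difference, and -0.78 (SE 0.21, adjusted p = 0.0617) in ESC medium. Plk2 fell with N2B27 in control cells, with a difference of -0.86 (SE 0.19, adjusted p = 0.00746), and rose by 1.16 in mutant cells (SE 0.21, adjusted p = 0.00275). Under cyclic loess, which reads a gene's mean centred value as its intensity, the fall in control was not called (-0.43, adjusted p = 0.137). The lower value of mutant cells in ESC medium passed under that setting (-1.46, adjusted p = 0.00578), with the compared groups alone (0.0248), with array weights (0.00523), with the range filter (0.0205) and without control sample 1 (0.0495).

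Btg2, an antiproliferative gene that acts in mRNA decay and marks neurogenic divisions of neural progenitors, followed the medium more than the genotype. It read -0.997, -0.76 and -0.61 on control arrays and -0.91 and -0.82 on mutant arrays, all in ESC medium. The N2B27 arrays gave 0.76, 0.00 and 0.08 in control cells, and 1.27, 0.59 and 0.92 in mutant cells. Each N2B27 array lay above every ESC medium array, and the genotypes overlapped in both media. Btg2 rose by 1.07 (SE 0.22, adjusted p = 0.00485) in control and by 1.79 (SE 0.24, adjusted p = 0.000495) in mutant cells, 2.09-fold and 3.47-fold. The genotype difference of 0.65 in N2B27 did not pass (SE 0.22, adjusted p = 0.12), though it did without control sample 1 (0.032), with array weights (0.00899) and with the range filter (0.0475).

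Perp, a tetraspan membrane protein gene that serves both p53-dependent cell death and desmosomes, was called in all 4 pairwise comparisons. The ESC medium arrays gave 0.01, 0.31 and 0.27 for control and -0.55 and -0.64 for mutant. N2B27 brought control arrays to -0.26, -0.26 and -0.17 and mutant arrays to 0.40, 0.16 and 0.25. No pair of compared groups overlapped. Mutant cells were lower than control in ESC medium, at -0.79 (SE 0.10, adjusted p = 0.00184). In N2B27 they were higher, by 0.50 (SE 0.09, adjusted p = 0.0126). Perp fell with N2B27 in control cells, with a difference of -0.42 (SE 0.09, adjusted p = 0.00676), and in mutant cells it rose by 0.86 (SE 0.10, adjusted p = 0.000232). All 4 calls held when any 1 array of the compared groups was left out, with adjusted p up to 0.0496.

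Genes of simple epithelia and desmosomes moved beside Perp in the ESC medium genotype difference and in the mutant response, but not in the control response. Of 12 such genes, 6 were lower in mutant cells in ESC medium, where 3.05% of all genes were called lower. These were Krt18 (-2.12), Krt8 (-1.85), Cldn6 (-1.79), Cldn7 (-1.43), Dsc2 (-1.35) and Dsp (-1.19). The median of the 12 was -1.15 against -0.01 over all genes. In mutant cells 10 of the 12 rose with N2B27 (median 1.18 against 0.01), where 14.9% of all genes rose. That count was 6 without mutant sample 2 in ESC medium. In control cells, where Perp fell, 2 rose and 3 fell, against 12.8% and 13.3% of all genes. Their median there was 0.13, with 7 of the 12 above 0. In N2B27 3 were higher in mutant cells and 1 lower, against 4.1% of all genes and 327 of 19935. The median was 0.12, and 1 was higher without control sample 2. The count of 6 in ESC medium was 4 without control sample 2 or mutant sample 2, and the 10 rises were 7 without mutant sample 3 in N2B27, with the compared groups alone or under cyclic loess. The mean of the 12 per array ran from -0.18 to 0.07 in control and from -1.17 to -0.91 in mutant in ESC medium, and from -0.15 to 0.09 and from -0.07 to 0.33 in N2B27. Centred values do not show whether a marker is at 0. The part of these genes' cells in the Perp result was not tested, and in bulk RNA a change in the share of cells and a change in RNA per cell cannot be told apart.

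**Figure D2:**
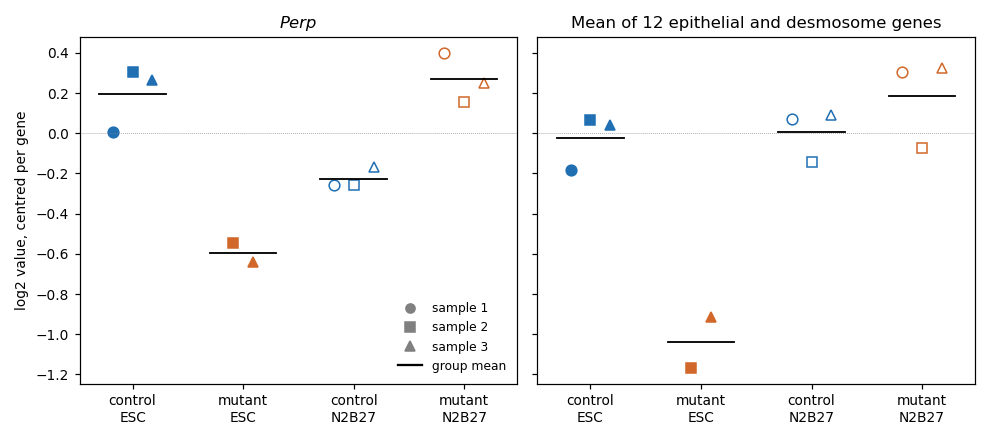
Centred log2 value of Perp (left) and the mean over 12 epithelial and desmosome genes (right) on each array, by group; symbols give the sample number and bars the group mean. Both are lowest in the 2 mutant arrays in ESC medium; in N2B27 the groups separate for Perp and overlap for the 12 genes.

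Phlda3, which encodes an inhibitor of AKT at the membrane, read -0.39, 0.00 and -0.03 on control arrays and -0.45 and -0.17 on mutant arrays, all in ESC medium. In N2B27 it read -0.05, 0.06 and 0.05 in control cells, while mutant cells gave 0.56, 0.58 and 0.41. The 3 mutant arrays in N2B27 were the highest of all 11, and the groups of the comparisons without them overlapped. It was higher in mutant cells in N2B27 by 0.50 (SE 0.11, adjusted p = 0.0312) and rose with N2B27 in mutant cells by 0.82 (SE 0.13, adjusted p = 0.00102). The control response was 0.16 (adjusted p = 0.395) and the genotype difference in ESC medium -0.17 (adjusted p = 0.603). The genotype call in N2B27 held without mutant sample 3 (0.041) but was lost without control sample 1 (0.0921), 2 (0.0791) or 3 (0.0912) or mutant sample 1 (0.0731) or 2 (0.0652).

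Zmat3, an RNA-binding zinc finger gene in splicing control, read -0.02, 0.18 and -0.03 on control arrays and -0.04 and -0.14 on mutant arrays, all in ESC medium. After N2B27 it read 0.00, 0.10 and -0.10 in control cells, while mutant cells gave 0.21, 0.34 and 0.43. Again the mutant arrays in N2B27 were the highest of all. Zmat3 rose with N2B27 in mutant cells by 0.41 (SE 0.09, adjusted p = 0.009). Leaving out mutant sample 3 in ESC medium ended that call (0.0794). The genotype difference of 0.32 in N2B27 (SE 0.08, adjusted p = 0.0543) passed with the sample number as a block (0.0338), with each array centred on its median (0.046), under cyclic loess (0.0329), with array weights (0.0103) and without mutant sample 1 (0.0419). In ESC medium the difference was -0.14 (adjusted p = 0.56), and in control cells the response was -0.04 (adjusted p = 0.801).

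Sesn2 encodes sestrin 2, a leucine-sensing inhibitor of mTORC1 that is also induced by other stresses. It read 0.67, 0.80 and 0.63 on control arrays and 0.47 and 0.54 on mutant arrays, all in ESC medium. In N2B27 the control arrays gave -0.36, -0.44 and -0.71 and the mutant arrays -0.40, 0.46 and -0.13. Mutant sample 2 in N2B27, the array farthest from its group over all genes, stood close to the mutant ESC medium arrays. Sesn2 fell with N2B27 in control cells, with a difference of -1.20 (SE 0.18, adjusted p = 0.00109). In mutant cells the difference of -0.53 did not pass (SE 0.21, adjusted p = 0.0915), but passed without mutant sample 2 in N2B27 (-0.77, adjusted p = 0.00176), with array weights (0.00299) and with the range filter (0.0367). The genotype difference was -0.19 (adjusted p = 0.763) in ESC medium and 0.48 (adjusted p = 0.175) in N2B27, which passed with array weights (0.0332).

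Trp53inp1, whose stress protein acts in p53 signalling and autophagy, had ESC medium values of -0.01, 0.00 and 0.04 on the control arrays and of -0.53 and -0.30 on the mutant arrays. Its N2B27 values were 0.28, -0.01 and 0.12 for control cells and 0.39, -0.03 and 0.27 for mutant cells. The ESC medium groups did not overlap, while the genotypes overlapped in N2B27. The genotype difference of -0.42 in ESC medium did not pass (SE 0.13, adjusted p = 0.0883), though it did with the compared groups alone (0.0413), with array weights (0.00841) and with the sample number as a block (0.0489). Trp53inp1 rose with N2B27 in mutant cells by 0.63 (SE 0.13, adjusted p = 0.00496). Leaving out mutant sample 2 in ESC medium ended that call (0.068). Its genotype difference in N2B27 was 0.08 (adjusted p = 0.809) and the control response 0.12 (adjusted p = 0.545).

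**Figure D3:**
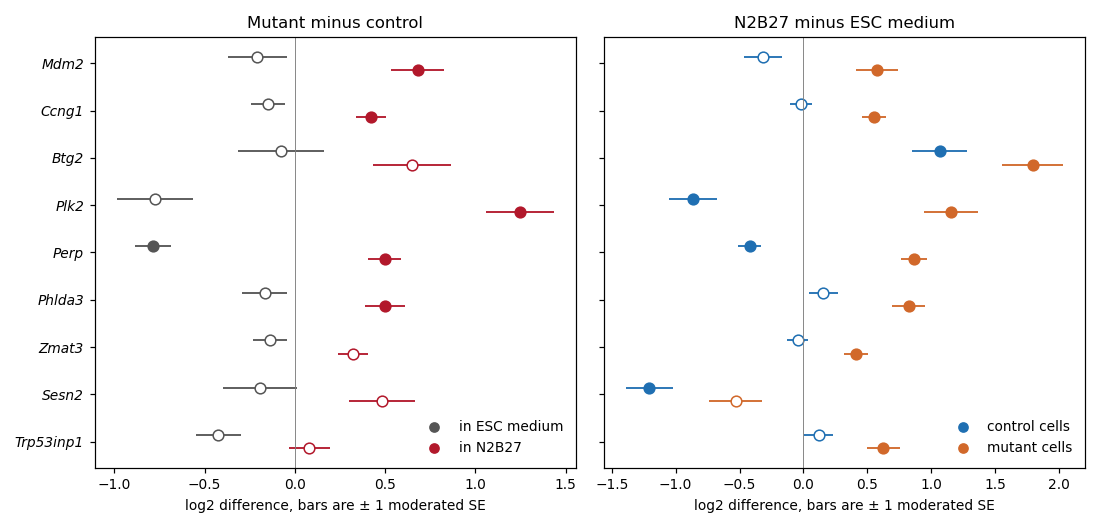
Log2 differences of the 9 targets with bars of 1 moderated SE to each side; the left panel gives mutant minus control in each medium and the right panel N2B27 minus ESC medium in each genotype, with filled points where the adjusted p was under 0.05. All 9 genotype differences lie below 0 in ESC medium, 1 of them called, and above 0 in N2B27, 5 of them called.

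Read as a group, the 9 targets had a median genotype difference of -0.19 in ESC medium, against -0.01 over all genes, and of 0.50 in N2B27, against 0.00. All 9 differences were below 0 in ESC medium (Btg2 turned to 0.03 with the sample number as a block) and above 0 in N2B27, where 47.0% and 49.6% of all genes were above 0. In ESC medium the groups did not overlap, with mutant lower, for 7 of the 9, against 21.7% of all genes. In N2B27 they did not overlap, with mutant higher, for 6 of the 9, against 11.7%. With N2B27, 8 of the 9 did not overlap upward in mutant cells (24.2% of all genes) and 1 downward (19.3%), and in control cells 1 upward (23.5%) and 4 downward (20.4%). The count of 5 called in the N2B27 genotype difference became 2 without control sample 2 or 3 and 3 without mutant sample 2 or with the compared groups alone, and array weights gave 8. Plk2 and Perp were called in each of these fits. With array weights 2882 of all genes were called there in either direction, against 1144 in the main fit.

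The test of the difference between the media, the interaction, asks whether the genotype difference in N2B27 differs from that in ESC medium. It was called upward for 3 of the 9, against 1.57% of all genes. The values were 2.02 for Plk2 (SE 0.28, adjusted p = 0.00929), 1.28 for Perp (SE 0.14, adjusted p = 0.00242) and 0.57 for Ccng1 (SE 0.12, adjusted p = 0.0483). Mdm2 had 0.89 (SE 0.22, adjusted p = 0.0764), Phlda3 0.67 (adjusted p = 0.0836), Zmat3 0.46 (adjusted p = 0.111), Trp53inp1 0.50 (adjusted p = 0.201), Sesn2 0.67 (adjusted p = 0.302) and Btg2 0.73 (adjusted p = 0.359). All 9 lay above 0, as did 52.0% of all genes, with a median of 0.67 against 0.01. The call of Perp held without any 1 array (adjusted p up to 0.0194). Plk2 missed the threshold without mutant sample 2 in ESC medium (0.0577), where the count fell to 1. Ccng1 was called in only 2 of the 11 fits that leave out 1 array, and was not called with each array centred on its median (0.0614), under cyclic loess (0.0674), with clusters fitted separately (0.0507), with the range filter (0.0628) or without chromosomes 8, X and Y (0.0519). With array weights all 9 were called, where 1782 of all genes were called in either direction, against 422 in the main fit.

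Beyond the 9, a list of 47 other p53 targets with a value was compared in the same way. Cdkn1a and Bax, both well known targets, were not analysed here. In mutant cells 15 of the 47 rose and 4 fell with N2B27 (median 0.14), where 14.9% of all genes rose and 10.3% fell. In control cells 10 rose and 11 fell (median 0.00), where 12.8% of all genes rose and 13.3% fell. The leading genes in mutant cells were Thbs1, a matrix glycoprotein gene, at 3.02 (SE 0.44, adjusted p = 0.000821), Trp53i11 at 2.28, the ERK phosphatase gene Dusp4 at 2.17, the peptide transporter gene Tap1 at 1.88 and Apaf1, the scaffold of the apoptosome, at 1.46 (SE 0.11, adjusted p = 2.25e-05). In control cells the largest were Epha2, an ephrin receptor gene, at -2.71 (SE 0.16, adjusted p = 8.76e-06), the cyclin D1 gene Ccnd1 at -1.33, Ephx1, a detoxifying hydrolase gene, at -1.31, Trp53i11 at 1.25 and Gadd45a, a growth arrest gene, at -1.19. These 10 calls held when any 1 array was left out.

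The genotype difference in N2B27 was called upward for 7 of the 47 (median 0.21), against 4.1% of all genes. In ESC medium it was called upward for 1 and downward for 3 (median -0.09), against 3.09% and 3.05% of all genes. In N2B27 mutant cells were higher in Ddit4l, an mTORC1 inhibitor gene, by 1.28 (SE 0.15, adjusted p = 0.00179), in Trp53i11 by 1.21, in Epha2 by 1.12, in Ckap2, a spindle gene, by 0.75 and in Pml, which builds nuclear bodies, by 0.62. All 5 held without any 1 array, and the count was 14 with the sample number as a block. In ESC medium Thbs1 differed by -2.30 (SE 0.44, adjusted p = 0.0143), Igfbp3 by -1.67, Tap1 by -0.89 and Ckap2 by 0.43. Of these, Thbs1 was lost without mutant sample 2 (0.131) or 3 (0.0824), Igfbp3 without control sample 2 (0.0751) or 3 (0.075) or mutant sample 2 (0.18) or 3 (0.0974), Ckap2 without mutant sample 3 (0.0636) and Tap1 under cyclic loess (0.15). Ckap2 lies on chromosome 8, whose 955 genes had a median genotype difference of 0.12 in ESC medium and 0.17 in N2B27. None of the 9 targets lies on chromosome 8 or a sex chromosome.

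The interaction was called upward for 7 of the 47 other targets (median 0.32), against 1.57% of all genes. The largest were Dusp4 at 2.14 (SE 0.46, adjusted p = 0.0457), Epha2 at 1.60, Tap1 at 1.11, Trp53i11 at 1.03 and Pml at 0.91. Dusp4 lies on chromosome 8, as Ckap2 does. Dusp4 and Trp53i11 were lost in 8 and 7 of the 11 fits that leave out 1 array. All 5 missed the threshold without mutant sample 2 in ESC medium. The count was 2 without mutant sample 3 there, and 3 without control sample 2 or 3 in that medium or without control sample 2 in N2B27. Epha2 (0.718), Tap1 (0.212) and Pml (0.613) were not called under cyclic loess. With array weights 17 of the 47 were called higher and 1 lower, where 1782 of all genes were called, against 422 in the main fit.

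**Figure D4:**
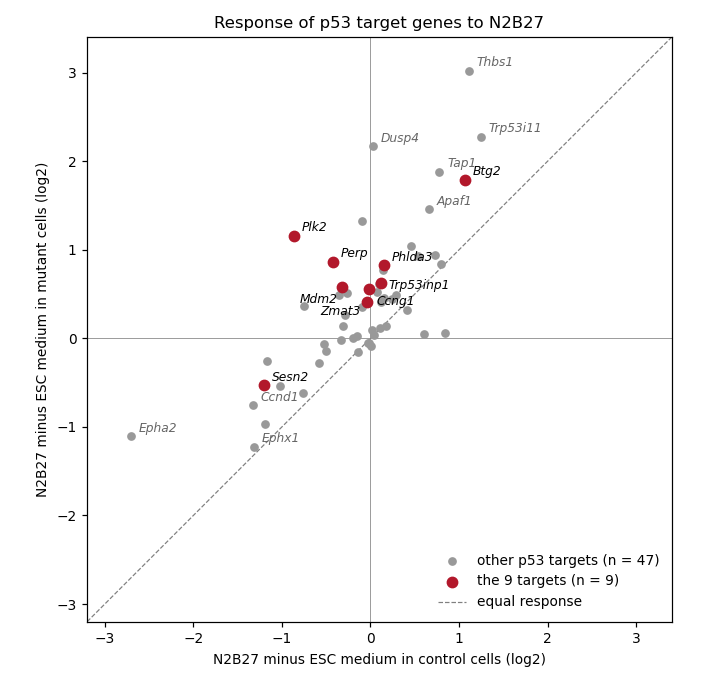
Log2 difference between N2B27 and ESC medium in control cells (horizontal axis) and in mutant cells (vertical axis) for the 9 targets (red) and 47 other p53 targets (grey); the dashed line marks an equal response. Of the 9, Plk2, Perp, Mdm2, Ccng1 and Zmat3 lie in the upper left quadrant, and all 9 lie above the dashed line. Plk2 and Perp were called in both genotypes, falling in control and rising in mutant cells.

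Genes that regulate p53 were read from a list of 30 measured. Of these, 1 was higher in mutant cells in ESC medium, the deubiquitinase gene Usp10 (0.67, SE 0.09, adjusted p = 0.00221), which lies on chromosome 8. That count is near the 3.09% of all genes called higher. In N2B27, 4 were higher, against 4.1% of all genes, and 2 were with the compared groups alone, with the range filter, without chromosomes 8, X and Y, or without control sample 2 or 3 or mutant sample 2. These were Cdkn2a, whose ARF product restrains MDM2, at 0.49 (SE 0.08, adjusted p = 0.0066), Usp10 at 0.47, the phosphatase gene Ppm1d at 0.33 (adjusted p = 0.0426) and the acetyltransferase gene Crebbp at 0.30 (adjusted p = 0.0334). The last 2 calls were lost in 4 and 5 of the 6 fits that leave out 1 array. The interaction was called by limma for 0 of 30, where 1.57% of all genes were called higher. At an unadjusted limma p under 0.05 there were 7 of the 30, and 2725 of all 19935 genes.

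With N2B27, 4 regulators rose and 8 fell in control cells, and 5 rose and 7 fell in mutant cells, with medians of -0.05 and -0.06. The rises were near the shares of all genes (12.8% and 14.9%), and 13.3% and 10.3% of all genes fell. The 4 rises in control cells became 1 without control sample 2 in ESC medium, and 2 without control sample 1 in that medium or control sample 2 or 3 in N2B27. Usp7, which removes ubiquitin from p53 and MDM2, fell in both, at -0.50 and -0.46. Mdm4, the MDM2 relative that binds p53, fell in control cells (-0.56, adjusted p = 0.0105), as did the methyltransferase gene Smyd2 (-0.93), Daxx (-0.65) and the ubiquitin ligase gene Rchy1 (-0.47). In mutant cells the acetyltransferase gene Ep300 rose by 0.63, Trp53bp1 by 0.53 and Trp53bp2 by 0.47, and the kinase gene Chek1 fell (-0.42). Of these, Usp7 in mutant cells was lost without mutant sample 2 in ESC medium (0.0538) and Chek1 without mutant sample 2 (0.0711) or 3 (0.0616) in that medium, where the count of falls went from 7 to 1 and 2. It was 4 without mutant sample 1 in N2B27 and 3 with the compared groups alone. The family members Trp63 and Trp73 were not called in any comparison. Trp73 came nearest, at 0.47 in the mutant response (adjusted p = 0.0996).

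The genes most like Mdm2 over the 11 arrays were those with the smallest root mean square difference after each gene was centred on its mean. The first 5 were Rev1, a translesion DNA polymerase gene (0.107 on the log2 scale), Dio3, a thyroid hormone deiodinase gene (0.133), Rai14 (0.134), Plau, the urokinase gene (0.139), and Pik3r1, a regulatory subunit of PI3 kinase (0.140). Ccng1 was the nearest of the 9 targets, at rank 7 (0.154), and Btg2 (0.687) and Sesn2 (0.556), the targets with the largest response in control cells, were the farthest of the 9.

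Other marker lists differed between the groups too. Of 8 ESC markers, 3 were higher in mutant cells in N2B27 (Zfp42, Esrrb and Pou5f1), where 4.1% of all genes were called higher. The mean of the 8 per array ran from -0.62 to -0.32 there, against -1.28 to -0.90 in control. The median difference of the 8 was 0.59, with 7 above 0. Nanog (-0.25), Utf1 (0.02), Sox2 (0.15), Dppa4 (0.70) and Tdgf1 (1.14) were not called. Zfp42 lies on chromosome 8 and was also higher in mutant cells in ESC medium (0.88, adjusted p = 0.0416). Of 7 neural progenitor markers 1, Nes, was higher in N2B27 (1.27), against the same 4.1% of all genes. The median of the 7 was 0.01, with 4 above 0, and Sox1 (-0.09), Pax6 (-0.10) and Hes5 (-0.08) lay below it. The means of the 7 per array, 0.18 to 0.31 against -0.10 to 0.07, therefore rest mostly on Nes and on Fabp7 (0.53, adjusted p = 0.0503). In N2B27 fibroblast and feeder markers had 1 of 8 lower, Col1a2 (-0.58), with means of -0.01 to 0.25 against 0.19 to 0.41 in control. Their median was -0.16, with 2 above 0, Col1a1 (0.23) and Postn (0.06). Primitive endoderm markers had 1 of 8 lower in N2B27, Dab2 (-0.51), with means of -0.08 to 0.02 against 0.02 to 0.09. Their median was -0.12, with 2 above 0, Gata4 (0.33) and Lama1 (0.09). Over all genes, 327 of 19935 were called lower in N2B27. In ESC medium 2 of the 8 fibroblast and feeder markers, Col1a1 (-1.32) and Col1a2 (-0.73), were lower in mutant cells, against 3.05% of all genes. The median of the 8 was -0.05, with 3 above 0. The means per array, -0.22 to -0.16 against 0.00 to 0.19 in control, therefore rest mostly on these 2 genes. The part of the cells marked by these lists in the values of the 9 targets was not tested.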

How the data were processed

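Each of the 11 samples was hybridised to 1 Affymetrix array. The submitters' processing notes name Affymetrix Expression Console 1.2 and RMA as the source of the deposited log2 values. These are centred per transcript cluster on a baseline not given in the sources used here. Base 2 is RMA's usual output. Centring removes brightness, so no filter on dim probes was possible and levels cannot be set between genes. Of 28815 clusters, 21780 had 1 gene symbol, 1605 several and 5430 none. Averaging over the clusters of each gene gave 19935 genes, and 21689 clusters matched RefSeq GRCm38.p6 by gene identifier. Trp53, Cdkn1a, Bax, Gdf15 and Rpl11 were not analysed here.

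All adjusted p-values in the text come from limma 3.58.1 in R 4.3.3, from one fit of the 4 groups (lmFit, eBayes) with Benjamini-Hochberg adjustment over all genes. The script was tested on simulated data. The titles number the samples, but the labels do not state that equal numbers mark pairs, and this fit has no term for the number. Between genotypes in N2B27, deviations from group means correlated at 0.256, 0.430 and 0.158 for equal numbers. For unequal numbers they correlated at -0.323 to 0.0792. Between media in control cells the values were 0.138, 0.181 and 0.131 for equal numbers and -0.194 to 0.0708 for unequal ones. For the equal numbers 2 and 3, they were 0.0365 and 0.284 between genotypes in ESC medium. Between media in mutant cells they were 0.215 and 0.266. Deviations cancel out within a group, so positive values for equal numbers force negative ones among the unequal. Alternatives were the compared groups alone, arrays centred on their medians, cyclic loess, array weights, clusters fitted separately, a filter on genes ranging under 0.5 over the arrays, chromosomes 8, X and Y left out, the sample number as a block, and each array left out in turn. Beside the 9 targets, the text names up to 5 called genes with the largest difference per list of p53 targets and regulators in each comparison, and the 5 genes nearest to Mdm2. The marker genes named from the other lists were chosen after their values were seen. The targets and the lists were chosen with earlier results of these data known.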

Additional observations from a re-analysis of the deposited data

Results flagged for a closer look

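The genotype difference itself differed between the media for 3 of the 9 targets, by the interaction term of the limma fit. The value in N2B27 minus that in ESC medium was 2.02 for Plk2 (adjusted p = 0.00929), 1.28 for Perp (adjusted p = 0.00242) and 0.57 for Ccng1 (adjusted p = 0.0483). Plk2 missed the threshold without mutant sample 2 in ESC medium (0.0577), and Ccng1 in 9 of the 11 fits that leave out 1 array.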

How the results depend on the processing

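Of 648 values of the 9 targets under the alternatives, 570 kept their direction and side of the threshold, 37 lost a call, 33 gained one and 8 changed sign. The sign changes were in uncalled values. Btg2 in the ESC medium genotype difference became 0.0259 with the sample number as a replicate block and ran from -0.182 to 0.0116 without single arrays. Trp53inp1 in the N2B27 genotype difference ran from -0.00907 to 0.199, and in the control response Ccng1 ran from -0.0804 to 0.0144 and Zmat3 from -0.0965 to 0.0225. The count of targets called in the ESC medium genotype difference was 3 with the compared groups alone, 2 under cyclic loess, 3 with array weights, 2 with the range filter, 2 with the replicate block and 1 to 2 without single arrays. In N2B27 it was 3 with the compared groups alone, 8 with array weights and 2 to 5 without single arrays. For the interaction it was 9 with array weights and 1 to 4 without single arrays. Over all genes, 1224 calls in ESC medium became 3138 with array weights, 766 without chromosomes 8, X and Y (35.0% of them higher, against 50.2%) and 304 to 1428 without single arrays. The 1144 calls in N2B27 became 397 with the compared groups alone, 2882 with array weights, 610 without those chromosomes and 454 to 1204 without single arrays. The 5018 calls of the mutant response became 7689 with array weights and 2720 to 5956 without single arrays. The 422 of the interaction became 273 under cyclic loess, 1782 with array weights, 657 with the replicate block and 59 to 633 without single arrays. The replicate block changed the calls of Zmat3 and Trp53inp1 given above and no other call of the 9 targets. The cause of these shifts was not tested.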
